A study of Homo sapiens with 12 samples.

Results

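The response of MDA-MB-231 cells to 0.05 μM Paclitaxel was read from 4 of the 12 RNA samples of the series: the 2 samples given that dose and the 2 untreated samples of the same day, chosen by the dose and day on their labels. MDA-MB-231 is an established line of triple negative breast cancer cells. The series placed such cells in droplets of Matrigel, a basement membrane gel, added the drug on day 2 by the labels (the study's methods give a later day for the cultures that were imaged) at 1 of 4 doses, and took RNA from 2 samples of each of 6 conditions. The question was what changes in the transcriptome when cells that grow and migrate in a 3D gel meet the drug.

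All samples carried the genotype label WT and held the line in its GFP form. C2 is the untreated pair of day 4, and the treated pair is also of day 4, after the drug on day 2. The untreated pair of day 2, C1, and the pairs at 0.005 μM and 0.5 μM serve below as further comparisons. The gel was digested with collagenase and dispase before total RNA was extracted, so the RNA is that of cells released from the gel, and the samples carry 1 line only. The study's methods call the samples of a condition biological replicates, and no source used here says whether they came from separate cultures, so the p-values measure the spread between these samples, which may be technical.

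Paclitaxel binds β-tubulin in the microtubule and stabilises the polymer. Dividing cells need microtubules that grow and shrink, and cells under the drug are known to stall in mitosis, to divide abnormally or to leave mitosis without dividing. Cells also keep the pool of free tubulin steady by degrading tubulin mRNA when free tubulin is abundant, a control known as tubulin autoregulation.

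The 12 libraries held 38380629 to 79169121 counts each, with 61914740 and 53851006 in the C2 samples and 70642594 and 66601851 in the treated samples. Genes with at least 1 count numbered 32910 and 33824 in C2 against 36654 and 39151 at 0.05 μM, and the part of this difference in depth and detection in the calls below was not tested. Counts of the mitochondrial genome took 4.72% and 5.97% of the C2 libraries and 4.51% and 3.73% of the treated ones. The 10 markers of MDA-MB-231 cells summed to 4446 and 3962 CPM (counts scaled to a common library total) in C2 and to 3902 and 4276 CPM in the treated samples, and none of them passed the test. Of 19 markers of other cell types, 11 lay under 1 CPM in all 4 libraries, and the whole list summed to 254 and 223 CPM in C2 and to 246 and 263 CPM at 0.05 μM, most of it from the epithelial keratin KRT19.

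Across the whole transcriptome, 25249 genes were tested and 2100 of them (8.32%) were called, that is, reached an adjusted p-value under 0.05 (Benjamini-Hochberg) in the quasi-likelihood test of edgeR. Of these, 1285 were higher at 0.05 μM (5.09%) and 815 were lower (3.23%). The split varied with the fit: 1376 higher and 1290 lower by DESeq2, and 2517 and 2300 without both C1 samples. The shares of 5.09% and 3.23% are those to set beside every count below of list members called against C2. The rises were large and mostly in genes of low level: 1071 of the 1285 changed at least 2-fold, their median log2 fold change was 1.86, and 197 reached a mean of 5 CPM over the 4 libraries. The falls were small and in well expressed genes: 106 of the 815 changed at least 2-fold, their median was −0.69 on the log2 scale, and 700 reached 5 CPM. Among the 11200 genes over 8 CPM, 148 were higher and 667 lower with a median of −0.11, and among the 9517 genes under 1 CPM, 788 were higher and 26 lower with a median of 0.34. Protein-coding genes gave 751 rises and 692 falls out of 14862, and long noncoding RNAs 228 rises and 41 falls out of 3880. Both treated samples lay beyond both C2 samples, in either direction, for 52.9% of all genes tested, called or not.

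**Figure D1:**
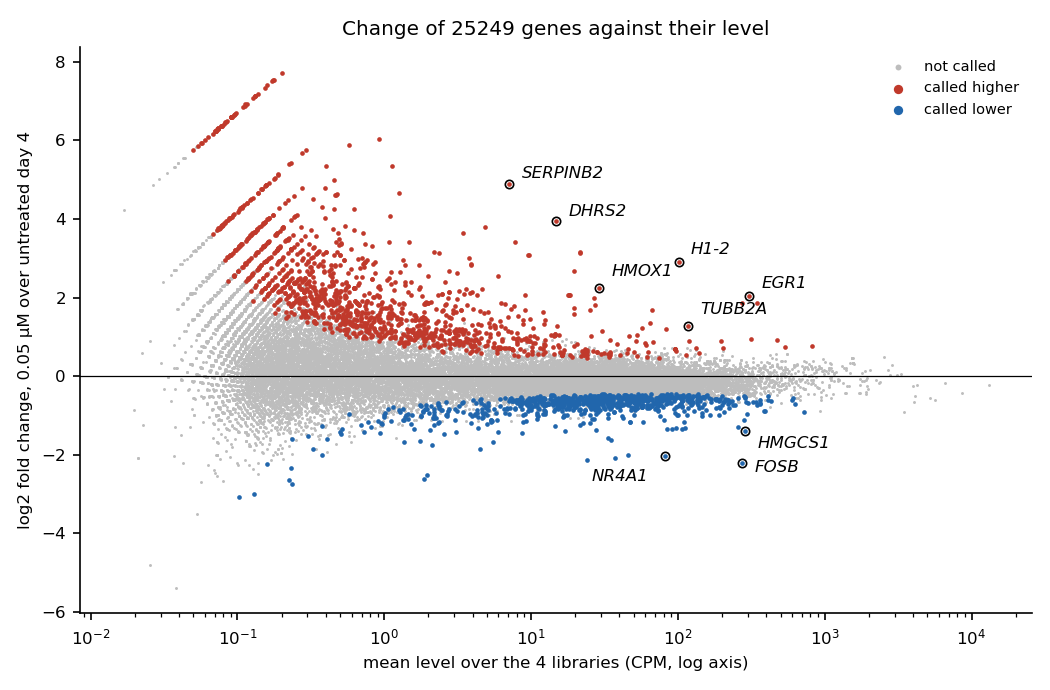
Each point is 1 of the 25249 genes tested, placed by its mean level over the 4 libraries (CPM, log axis) and by its log2 fold change of 0.05 μM Paclitaxel against untreated day 4, with genes called higher in red, called lower in blue and the rest in grey. Most of the 1285 red points lie at low levels and far from 0, whereas most of the 815 blue points lie at high levels and close to 0.

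Genes of replication-dependent histones, which package newly made DNA and are known to be transcribed mainly in S phase, had the highest median of the 42 gene lists. Of 15 such genes tested, 11 rose and 0 fell, against 5.09% higher among all genes, and their median log2 fold change was 1.58. H1-2, a linker histone, measured 23.2 and 24.7 CPM in C2 and 202 and 154 CPM at 0.05 μM. Both treated samples were several times above both untreated ones, a log2 fold change of 2.89 ± 0.20 (SE), or 7.44-fold, with an adjusted p of 1.58e-05. H4C8, a gene of the core histone H4, measured 1.39 and 1.23 CPM in C2 and 14.3 and 13.9 CPM under the drug. The groups were again far apart, and the fold was 10.7 (log2 3.43 ± 0.21, adjusted p 6.07e-06). H2BC4, which encodes a core histone H2B, rose from 0.835 and 0.902 CPM to 5.55 and 5.22 CPM (log2 2.63 ± 0.21, adjusted p 4.11e-05). H4C14 rose 8.54-fold and H4C15 8.51-fold, but these are near-identical copies of 1 gene with nearly equal counts in every library, and they and HIST2H2AA3, which rose 4.19-fold, cannot be apportioned with certainty.

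Members of the histone list did not all rise: 14 of the 15 had groups that did not overlap, against 52.9% of all genes, and the 4 that were not called included H2BC11, picked out here after its values were seen as the member of highest level, at 732 and 633 CPM in C2 and 751 and 789 CPM at 0.05 μM. The libraries were of total RNA, and the labels do not say whether mRNA was selected by its poly(A) tail, which most histone mRNAs lack. With a C2 sample or a treated sample left out, 9 to 10 histone genes were called, and without both C1 samples 13 were.

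The starts of these genes are shown because the histone list is rich in 1 short motif, the CCAAT box. RefSeq promoter windows of the GRCh38.p14 build, 250 bases before to 50 bases after each start, were found for 13 of the 15 histone genes, and 11 of the 13 (84.62%) held CCAAT on 1 strand or the other, against 36.06% of the windows of all 13291 genes with one. Below are 90 bases upstream of the start of H1-2, at chr6:26056481-26056570 on the minus strand, and of H2BC4, at chr6:26124010-26124099 on the minus strand. The capitals mark CCAAT in both. A match of letters is a description and does not show that a factor binds there.
H1-2: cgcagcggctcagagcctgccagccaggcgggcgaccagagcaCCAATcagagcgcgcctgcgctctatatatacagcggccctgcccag
H2BC4: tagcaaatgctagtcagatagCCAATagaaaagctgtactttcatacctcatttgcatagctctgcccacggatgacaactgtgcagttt

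Of 15 genes of α- and β-tubulin, the protein that Paclitaxel binds, 6 rose and 0 fell, against 5.09% higher and 3.23% lower among all genes. The median log2 fold change was 0.60, and 13 had groups that did not overlap, against 52.9% of all genes. Of these 13, 1 was lower under the drug: TUBA3D, picked out after its values were seen, at 0.802 and 1.18 CPM in C2 and 0.435 and 0.718 CPM at 0.05 μM, which was not called. TUBB2A, a β-tubulin, measured 71.7 and 65.1 CPM in C2 and 167 and 163 CPM at 0.05 μM, so that both treated samples stood clear of both controls (2.42-fold, log2 1.27 ± 0.20, adjusted p 0.00327). TUBB2B, its close copy, rose 2.34-fold (adjusted p 0.00415), and reads cannot be divided with certainty between them. TUBA1A, an α-tubulin, rose from 329 and 321 CPM to 684 and 552 CPM, 1.90-fold (log2 0.93 ± 0.16, adjusted p 0.00552). TUBB3, the β-tubulin isotype of neurons, measured 4.47 and 4.69 CPM in C2 and 9.14 and 10.97 CPM under the drug (log2 1.13 ± 0.22, adjusted p 0.00912).

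TUBB, the tubulin gene of highest level, and TUBA1B did not pass the test. TUBB measured 988 and 974 CPM in C2 and 1265 and 1164 CPM at 0.05 μM, which is higher in both treated samples but by a log2 fold change of 0.31 ± 0.20 with an adjusted p of 0.398. TUBA1B stood at 389 and 404 CPM against 577 and 488 CPM (log2 0.43, adjusted p 0.112). TTC5, which binds tubulin as it is made and marks its mRNA for decay, measured 37.9 and 33.5 CPM in C2 and 29.0 and 24.0 CPM under the drug (log2 −0.43, adjusted p 0.103), and STMN1, which sequesters free tubulin, gave a log2 fold change of −0.23 (adjusted p 0.516). Among 27 microtubule-associated and folding genes, 1 fell, MAP2, a protein that decorates microtubules (log2 −0.54, adjusted p 0.0422), and 0 rose. The tubulin rises numbered 2 without C2 replicate 1 or without C2 replicate 2 and 10 without C1 replicate 2. The calls of TUBA1A and TUBB3 were lost without either C2 sample, and their adjusted p-values with a library left out were up to 0.0696 and 0.106.

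The stretch of the TUBB2A promoter is shown because it holds the whole palindrome TGACGTCA, the cyclic AMP response element, found in 1 of 15 tubulin windows and in 2.972% of all windows. It lies at chr6:3157556-3157645 on the minus strand of GRCh38.p14, with the element in capitals.
TUBB2A: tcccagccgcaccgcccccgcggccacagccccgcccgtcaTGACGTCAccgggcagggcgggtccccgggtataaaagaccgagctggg

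Besides histones, the genes that rose most among those with a mean of at least 5 CPM included SERPINB2, DHRS2, EGR1, ARC, ABCC9 and INHBA. SERPINB2, a secreted and cytoplasmic inhibitor of the urokinase plasminogen activator, measured 0.262 and 0.681 CPM in C2 and 15.1 and 12.5 CPM at 0.05 μM. Its rise of 29.6-fold was the highest of all 155 genes eligible for naming (log2 4.89 ± 0.34, adjusted p 1.53e-05). DHRS2, a short-chain dehydrogenase on chromosome 14 (GRCh37, 24099324 to 24114848), rose 15.6-fold from 1.67 and 1.91 CPM to 29.0 and 26.9 CPM (log2 3.96 ± 0.20), and its adjusted p of 3.95e-06 was the lowest of the whole transcriptome. EGR1, an immediate early zinc finger factor, was already well expressed, at 125 and 113 CPM in C2, and reached 475 and 503 CPM (4.11-fold, log2 2.04 ± 0.25, adjusted p 0.000829). ARC, another immediate early gene known best from neurons, rose from 5.03 and 5.56 CPM to 31.0 and 36.8 CPM (6.41-fold). ABCC9, a regulatory subunit of ATP-sensitive potassium channels, rose from 1.36 and 2.15 CPM to 9.86 and 10.5 CPM (5.82-fold), and INHBA, the β subunit of activin A, from 3.45 and 3.61 CPM to 13.97 and 15.4 CPM (4.16-fold). The rule that chose these 6 genes required groups without overlap, and each call held with any 1 of the 12 libraries left out.

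**Figure D2:**
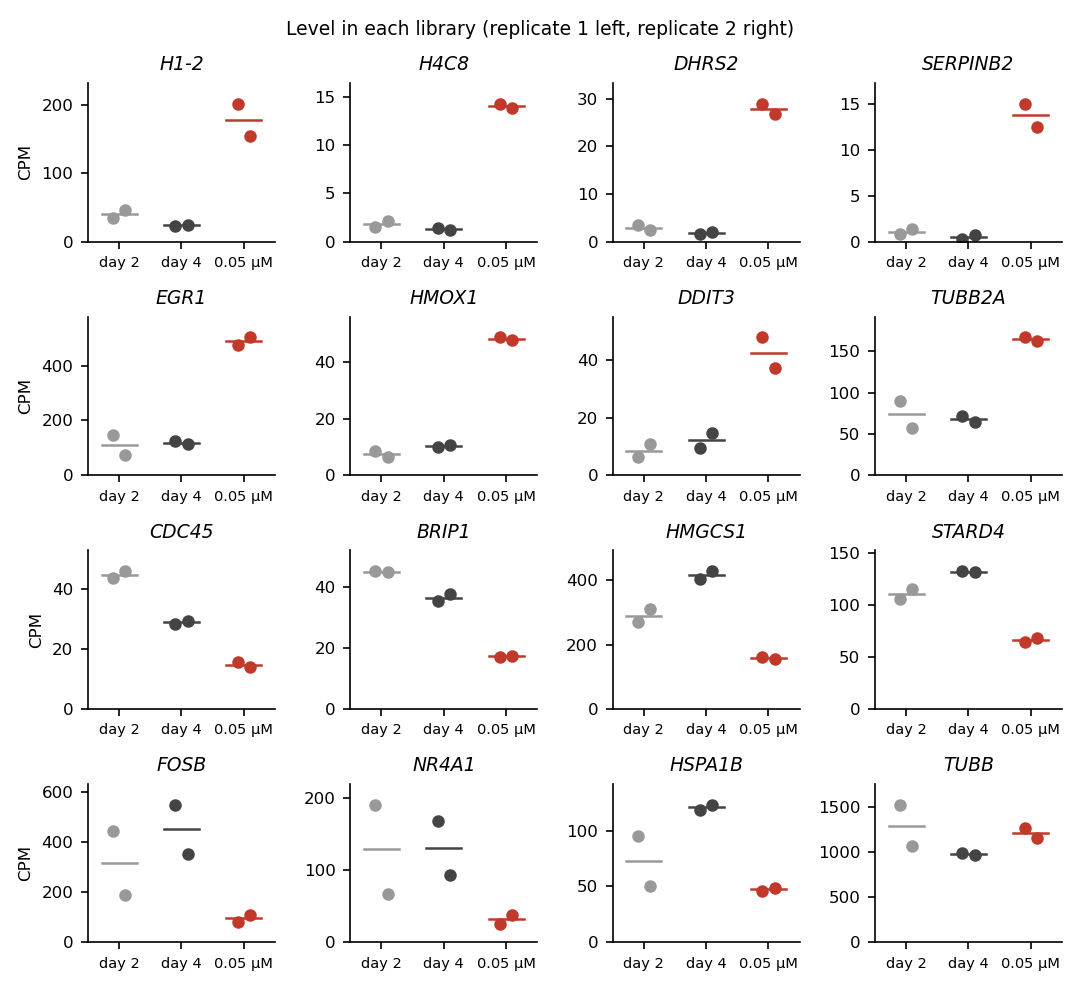
Levels in CPM of 16 genes in the untreated day 2, untreated day 4 and 0.05 μM samples, 1 panel a gene, with replicate 1 on the left and replicate 2 on the right of each group and a line at the mean. In genes that rose, such as H1-2, SERPINB2 and HMOX1, both 0.05 μM samples lie above all 4 untreated samples, and FOSB shows a wide gap between untreated replicates.

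A loose form of the AP-1 site, TGANTCA with any base at N, was sought on either strand. Promoter windows of genes called higher held it more often than all windows did, 76 of 662 (11.48%) against 5.5%. The genes called lower held it in 26 of 576 (4.514%). SERPINB2 and OSGIN1 are shown as examples, at chr18:63887561-63887650 and chr16:83953101-83953190, both on the plus strand of GRCh38.p14, with the match in capitals. The match reads TGAATCA in SERPINB2 and TGACTCA in OSGIN1, and the share of each form was not computed.
SERPINB2: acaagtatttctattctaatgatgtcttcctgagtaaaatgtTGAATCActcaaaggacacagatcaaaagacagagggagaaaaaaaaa
OSGIN1: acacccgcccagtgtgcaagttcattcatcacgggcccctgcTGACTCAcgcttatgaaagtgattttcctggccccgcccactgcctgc

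Oxidative stress genes rose in part. HMOX1, heme oxygenase 1, which breaks down heme and is a target of the NRF2 factor, measured 9.94 and 10.5 CPM in C2 and 48.7 and 47.8 CPM at 0.05 μM, and the replicates of each group lay very close together (4.72-fold, log2 2.24 ± 0.16, adjusted p 1.79e-05). Of 34 NRF2 and metallothionein genes, 6 rose and 0 fell, against 5.09% higher and 3.23% lower among all genes. The list's median was 0.06, so most of its members did not move with HMOX1. The others that rose included OSGIN1, an oxidative stress inhibitor of growth, from 7.35 and 6.02 CPM to 17.9 and 18.4 CPM (2.71-fold), and FTL, the light chain of the iron store ferritin, from 575 and 650.2 CPM to 1088 and 982 CPM (1.69-fold, adjusted p 0.0141). The call of FTL was lost when any 1 of the 4 libraries was left out, with an adjusted p of up to 0.161, and 2 to 3 members of the list had a call in those fits.

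DDIT3, the CHOP factor of the integrated stress response, measured 9.48 and 14.9 CPM in C2 and 48.1 and 37.4 CPM under the drug (3.51-fold, log2 1.81 ± 0.26, adjusted p 0.00212). STC2, the secreted glycoprotein stanniocalcin 2, rose from 1.46 and 1.45 CPM to 4.49 and 4.44 CPM (3.07-fold). The wider list of 41 ER stress and amino acid response genes was split, with 5 rises, 5 falls and a median of −0.21. Among all genes 5.09% were higher and 3.23% lower. Calls of both directions in this list were lost when any 1 of the 4 libraries was left out. Among the falls was PSAT1, an enzyme of serine synthesis, from 86.9 and 81.9 CPM to 54.8 and 49.3 CPM (log2 −0.70, adjusted p 0.00937), whose call was lost without C2 replicate 1 or without the treated replicate 2 (adjusted p up to 0.102).

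MDA-MB-231 cells are known to carry a mutant p53. Of 29 p53 target genes 2 rose and 0 fell, beside 5.09% higher and 3.23% lower among all genes, with a median of 0.05. GADD45A, which binds PCNA and acts in growth arrest, rose from 37.6 and 34.9 CPM to 94.0 and 89.9 CPM (2.53-fold, log2 1.34 ± 0.14, adjusted p 0.000221). CDKN1A, the p21 inhibitor of cyclin-dependent kinases, measured 76.6 and 69.8 CPM in C2 and 67.9 and 72.4 CPM at 0.05 μM, overlapping groups with an adjusted p of 0.874, and GDF15 gave a log2 fold change of 0.50 ± 0.24 (adjusted p 0.230). In the BCL2 family of 18 genes, the pro-death members BAK1 and BMF rose (log2 0.61 and 0.62) and the pro-survival member MCL1 fell (log2 −0.62, from 736 and 709.6 CPM to 463 and 479 CPM, adjusted p 0.0221). The 3 calls of the BCL2 family were each lost when any 1 of the 4 libraries was left out.

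Cytokine and NF-κB genes were mixed around a positive median. Of 37 such genes, 14 rose and 2 fell, against 5.09% higher and 3.23% lower among all genes, the median was 0.47, and 30 had groups that did not overlap, against 52.9% of all genes. IL24, a cytokine of the IL-10 family, measured 0.769 and 0.515 CPM in C2 and 9.62 and 8.49 CPM at 0.05 μM, 13.97-fold higher with no overlap (log2 3.8 ± 0.22, adjusted p 4.51e-06). IL32, a proinflammatory cytokine, rose from 9.74 and 14.1 CPM to 39.5 and 37.4 CPM (3.23-fold, adjusted p 0.000785). CSF3, the granulocyte colony-stimulating factor, rose from 0.311 and 0.607 CPM to 1.94 and 2.65 CPM (5.04-fold), and NFKBIE, an inhibitor that holds NF-κB in the cytoplasm, from 19.1 and 18.4 CPM to 42.6 and 40.8 CPM (2.22-fold). VCAM1, an adhesion molecule named here after its values were seen, had 0 counts in both C2 samples and 33 and 26 counts under the drug, at least 15.4-fold higher against a floor of 3 counts over both untreated libraries.

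CXCL8 and IL6, cytokines that the line is known to secrete, did not pass the test. CXCL8, the neutrophil chemokine IL-8, measured 817 and 1122 CPM in C2 and 1127 and 876 CPM at 0.05 μM, with overlapping groups (adjusted p 0.966), and IL6 measured 19.1 and 14.8 CPM against 17.2 and 18.1 CPM (adjusted p 0.876). The 2 members that fell were NFKBIA, another inhibitor of NF-κB, and CCL2, a monocyte chemokine, with log2 fold changes of −0.50 and −0.72, named after their values were seen because they are the 2 falls of the list. The number of rises in this list went from 14 to 5 without C2 replicate 1 and to 7 without the treated replicate 2, and both falls were lost without any 1 of the 4 libraries and numbered 5 without either C1 sample.

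DNA replication genes fell. Of 47 tested, 22 were called lower and 0 higher, against 3.23% lower among all genes, the median was −0.59, and 45 of the 47 had a log2 fold change below 0. CDC6, which loads the MCM helicase onto origins, measured 104 and 98.3 CPM in C2 and 54.0 and 46.4 CPM at 0.05 μM, so that both treated samples stood well below both untreated ones (log2 −1.01 ± 0.15, adjusted p 0.00223). CDC45, a part of the active helicase, fell from 28.5 and 29.5 CPM to 15.6 and 13.9 CPM (log2 −0.97 ± 0.14). CLSPN, the adaptor of the replication checkpoint kinase CHK1, fell from 56.4 and 55.5 CPM to 28.8 and 26.9 CPM (log2 −1.01), and FEN1, the flap endonuclease that trims Okazaki fragments, from 135 and 133 CPM to 74.6 and 59.4 CPM (2-fold lower). These 4 calls held with each library left out. In the same libraries the histone genes, which are also of S phase, stood higher, as given above.

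Genes of homologous recombination and the Fanconi pathway, which repair broken and cross-linked DNA, fell alongside: 13 of 35 were lower and 0 higher, against 3.23% lower among all genes, with a median of −0.51 and 32 without overlap, against 52.9% of all genes. BRIP1, a helicase that works with BRCA1, measured 35.2 and 37.7 CPM in C2 and 17.1 and 17.3 CPM under the drug (log2 −1.09 ± 0.13, adjusted p 0.000528), and EXO1, an end-resecting nuclease, fell from 35.9 and 38.8 CPM to 20.7 and 18.7 CPM (log2 −0.93). BRCA1 and BRCA2 each gave a log2 fold change of −0.74, with adjusted p-values of 0.00637 and 0.0058 that rose to at most 0.0742 and 0.0614 when a C2 or treated sample was left out. Of 25 genes of G1 cyclins, RB and E2F, 5 fell, among them RBL1, the pocket protein p107, from 33.9 and 32.9 CPM to 16.9 and 16.7 CPM (log2 −0.99 ± 0.14). Without the treated replicate 2 the falls numbered 5 in DNA replication and 3 in recombination, without C2 replicate 1 they numbered 7 and 2, without C2 replicate 2 they numbered 9 and 5, and without the treated replicate 1 they numbered 13 and 4, while without either C1 sample they numbered 34 and 23. The G1, RB and E2F list had 1 fall in each of these fits with a C2 or treated sample left out, and had 10 without either C1 sample.

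CCAAT letters are also dense at the starts of the replication genes, where 24 of 40 windows (60%) held the box, and the E2F site TTTGGCGC stood in 6 of 40 (15%) against 0.9179% of all windows. The stretches upstream of CDC45, chr22:19479799-19479888 on the plus strand, and CDC6, chr17:40287748-40287837 on the plus strand (GRCh38.p14), are shown as those with several copies. The capitals mark CCAAT, or ATTGG where the box reads on the other strand. The share over all genes called lower was 36.81%, near the 36.06% of all windows.
CDC45: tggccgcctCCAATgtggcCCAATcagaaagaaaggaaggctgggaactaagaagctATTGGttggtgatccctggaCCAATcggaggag
CDC6: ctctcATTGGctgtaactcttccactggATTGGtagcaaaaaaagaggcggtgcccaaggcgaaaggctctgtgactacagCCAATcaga

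Mitotic genes did not move as a group. Of 42 genes of G2 and M phase, 4 fell and 0 rose, against 3.23% lower and 5.09% higher among all genes. Their median was −0.12, beside −0.11 for all genes over 8 CPM. CDK1, the kinase that drives entry into mitosis, measured 157 and 179 CPM in C2 and 103 and 78.8 CPM at 0.05 μM (log2 −0.89 ± 0.21, adjusted p 0.0238), and TOP2A, the topoisomerase that untangles sister chromatids, 488 and 508 CPM against 299 and 244 CPM (log2 −0.88 ± 0.16, adjusted p 0.00714). The list had no call without the treated replicate 2 or without C2 replicate 1, where adjusted p-values reached 0.159 for CDK1 and 0.0623 for TOP2A, it had 2 falls without C2 replicate 2, and it had 11 falls and 3 rises without either C1 sample. CCNB1, the cyclin partner of CDK1, stood the other way, at 146 and 161 CPM in C2 and 247 and 178 CPM under the drug, but did not pass the test (log2 0.47 ± 0.19, adjusted p 0.165).

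MKI67, a marker of cycling cells, measured 206 and 195 CPM against 175 and 175 CPM (adjusted p 0.713), and PLK1, a mitotic kinase, 67.4 and 53.5 CPM against 72.5 and 70.4 CPM (adjusted p 0.694). The spindle assembly checkpoint holds cells in mitosis until every chromosome is attached. Beside 3.23% lower and 5.09% higher among all genes, 0 of its 23 genes rose and 2 fell. These were the kinetochore subunits SPC24, from 15.03 and 14.02 CPM to 7.85 and 7.24 CPM (log2 −0.94, adjusted p 0.0128), and SPC25 (log2 −0.69, adjusted p 0.0365), each lost in some fits with 1 sample fewer. In bulk RNA, fewer cells in a phase and less RNA per cell cannot be told apart.

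**Figure D3:**
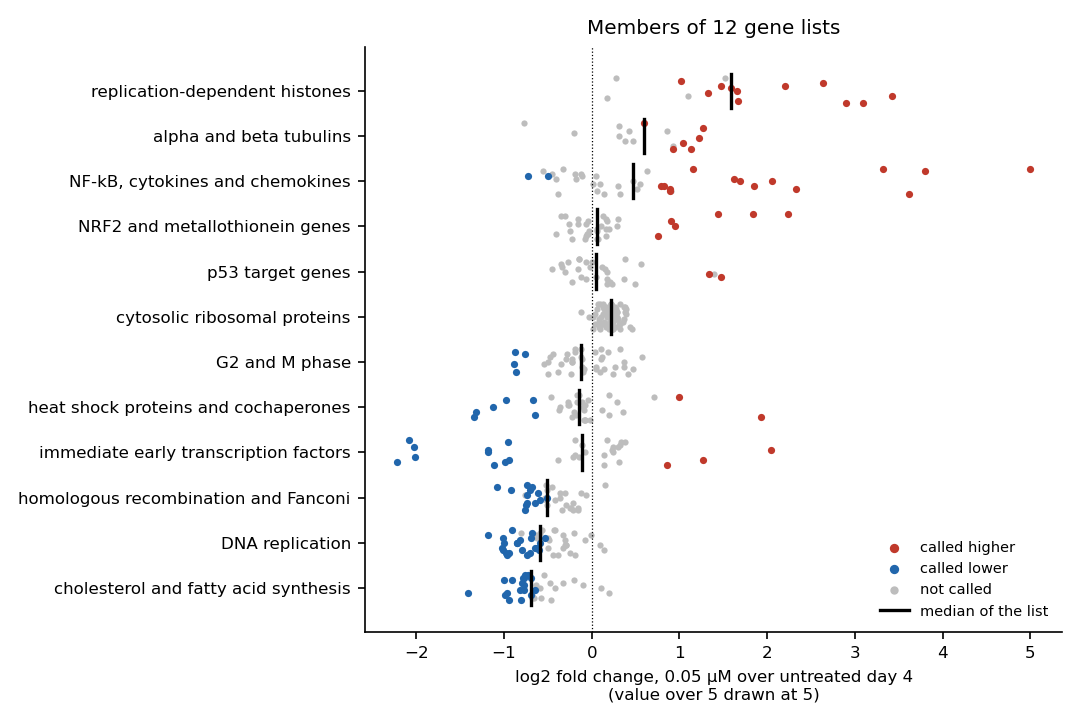
Log2 fold changes of 0.05 μM Paclitaxel against untreated day 4 for the tested members of 12 gene lists, 1 point a gene, coloured by call, with a bar at the list's median and the 1 value over 5 (VCAM1) drawn at 5. Histone genes lie highest (median 1.58), replication, recombination and cholesterol genes lie below 0, and the heat shock and immediate early lists spread to both sides.

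Cholesterol and fatty acid synthesis genes fell with the lowest median of the 42 lists. Of 33 tested, 18 fell and 0 rose, against 3.23% lower among all genes, with a median of −0.69, and 30 had groups that did not overlap, against 52.9% of all genes. HMGCS1, which makes HMG-CoA in the mevalonate pathway, measured 405 and 429.8 CPM in C2 and 161 and 154 CPM at 0.05 μM, a 2.65-fold drop with replicates close together (log2 −1.41 ± 0.14, adjusted p 0.000148). STARD4, a carrier of cholesterol between membranes, fell from 133 and 131 CPM to 64.1 and 68.4 CPM (1.99-fold lower), and CYP51A1, a demethylase of the sterol ring, from 37.4 and 36.2 CPM to 20.3 and 17.5 CPM (log2 −0.96 ± 0.14). SQLE, squalene epoxidase, fell from 52.2 and 45.5 CPM to 30.0 and 26.8 CPM (log2 −0.78), with an adjusted p of 0.00563 that was up to 0.0845 with a sample left out. The falls numbered 3 without C2 replicate 1 or without the treated replicate 2, 9 without C2 replicate 2 and 27 without both C1 samples.

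The promoter stretches of HMGCS1, chr5:43313493-43313582, and STARD4, chr5:111512634-111512723, both on the minus strand of GRCh38.p14, are shown as examples of the 17 of 26 windows of this list (65.38%) with a CCAAT box. Capitals mark CCAAT or ATTGG, its reverse.
HMGCS1: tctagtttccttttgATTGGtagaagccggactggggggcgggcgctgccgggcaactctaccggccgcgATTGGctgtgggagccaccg
STARD4: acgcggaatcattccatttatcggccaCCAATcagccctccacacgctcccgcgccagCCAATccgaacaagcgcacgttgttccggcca

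Immediate early genes, which respond within minutes to growth signals or stress, split. Of 31, 3 rose and 10 fell, against 5.09% higher and 3.23% lower among all genes. EGR1 rose 4.11-fold as above, while FOSB, a partner of JUN in AP-1, fell from 549 and 350.4 CPM to 82.1 and 111 CPM, a 4.66-fold drop (log2 −2.22 ± 0.36, adjusted p 0.00401). The nuclear receptors NR4A1, NR4A2 and NR4A3 fell 4.06-, 4.06- and 4.22-fold. NR4A1 measured 168 and 93.9 CPM in C2 and 26.2 and 38.4 CPM under the drug, and NR4A3 87.9 and 33.4 CPM against 12.5 and 16.3 CPM, so C2 replicate 1 was far above replicate 2 in genes that are lower in both treated samples. FOS itself measured 99.8 and 86.4 CPM against 87.2 and 89.0 CPM (adjusted p 0.810).

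The call of FOSB held with each library left out, but those of NR4A1, NR4A2 and NR4A3 were lost without C2 replicate 1 and without either treated replicate, with adjusted p-values of up to 0.115, 0.108 and 0.136. Without C2 replicate 1 the list had 2 rises and 1 fall and its median went from −0.11 to 0.03, without C2 replicate 2 it had 1 rise and 8 falls, and without either treated replicate it had 1 rise and 2 falls. ATF3, a stress factor of the same list, fell from 455 and 312 CPM to 174 and 180.0 CPM (log2 −1.11, adjusted p 0.00439), with an adjusted p of 0.0605 without C2 replicate 1. Cells were freed from the gel with enzymes before extraction, and its part in these levels was not tested.

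Heat shock genes encode chaperones that refold proteins. Of 35 tested 6 fell and 2 rose, against 3.23% lower and 5.09% higher among all genes. The rises were DNAJA4, from 0.229 and 0.294 CPM to 0.997 and 0.992 CPM (log2 1.92, adjusted p 0.0024), and HSPB8, from 4.06 and 2.98 CPM to 7.29 and 6.77 CPM (log2 0.995, adjusted p 0.00647). The falls included genes of the inducible HSP70 system: HSPA1B, from 118 and 123 CPM to 46.3 and 48.9 CPM (2.54-fold lower, adjusted p 0.00556), HSPA6, from 5.55 and 6.83 CPM to 2.78 and 2.19 CPM (2.49-fold lower, adjusted p 0.00286), and the cochaperone DNAJB1, from 398 and 382 CPM to 211 and 185 CPM (1.97-fold lower, adjusted p 0.00248). All were lower in both treated samples, but HSPA1B and HSPA1A are near-identical copies, and without the treated replicate 2 the adjusted p of HSPA1B was 0.0623. The falls in the list numbered 3 without C2 replicate 1 or the treated replicate 1 and 2 without the treated replicate 2. HSPA6 is shown because 6 of 32 heat shock windows (18.75%) held a heat shock element, 3 blocks that alternate between GAA and TTC with 2 bases between neighbours, against 0.3311% of all. The stretch lies at chr1:161524427-161524516 on the plus strand of GRCh38.p14, and the capitals mark the element, which begins with TTC here.
HSPA6: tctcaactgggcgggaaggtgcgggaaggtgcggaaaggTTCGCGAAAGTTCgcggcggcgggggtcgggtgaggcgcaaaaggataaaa

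Besides FOSB and the NR4A genes, the 12 largest falls among genes with at least 5 CPM included RAB17, RAB3B, CAPN8, NEDD9 and SLCO4C1. RAB17, a small GTPase of vesicle transport in epithelia, measured 51.6 and 26.4 CPM in C2 and 8.51 and 9.15 CPM at 0.05 μM (4.42-fold lower, log2 −2.14 ± 0.26, adjusted p 0.000785). RAB3B, a GTPase of secretion, fell from 45.4 and 34.4 CPM to 15.2 and 15.4 CPM (2.61-fold lower), and CAPN8, a calcium-dependent protease, from 57.7 and 43.0 CPM to 14.9 and 19.1 CPM (2.96-fold lower). All 3 were also low on day 2, at 12.2 and 14.3 CPM for RAB17, 19.7 and 20.2 CPM for RAB3B and 12.7 and 19.1 CPM for CAPN8. RAB17 against C1 gave a log2 fold change of −0.59 and was not called. NEDD9, a focal adhesion scaffold, fell from 64.9 and 41.6 CPM to 16.7 and 17.8 CPM (3.08-fold lower, adjusted p 0.00158) and stood at 42.0 and 31.7 CPM on day 2. SLCO4C1, an organic anion transporter, fell from 12.8 and 12.4 CPM to 5.06 and 4.23 CPM (2.72-fold lower). The call of CAPN8 was lost without C2 replicate 1 or without the treated replicate 1 (adjusted p up to 0.0649), and those of the other 4 held with each library left out.

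The matrix metalloproteinases MMP1, MMP3 and MMP13 rose in a list that did not move as a whole. Among 50 collagens, laminins and proteases, 5 rose, 5 fell and the median was −0.06, and the falls numbered 0 to 2 without 1 of the 4 libraries, while 11 rose and 9 fell without either C1 sample. MMP3, stromelysin 1, measured 0.753 and 1.14 CPM in C2 and 7.18 and 6.45 CPM at 0.05 μM (7.22-fold, log2 2.85 ± 0.22, adjusted p 4.11e-05), MMP13, a collagenase, 2.05 and 2.87 CPM against 7.96 and 7.32 CPM (3.11-fold), and MMP1, the interstitial collagenase, 22.7 and 40.6 CPM against 113 and 90.5 CPM (3.21-fold, adjusted p 0.00516). Both treated samples were above both controls in each, and MMP1 alone of the 3 lost its call, without C2 replicate 1 (adjusted p 0.0625). COL3A1, a fibrillar collagen of stromal cells, rose from 0.344 and 0.129 CPM to 1.52 and 1.46 CPM, and PDGFRA, a growth factor receptor, from 0.115 and 0.129 CPM to 2.16 and 2.00 CPM (16.9-fold). FLT1, a VEGF receptor, had 1 and 2 counts in C2 and 22 and 22 counts under the drug, a ratio of 11.5 with a 95% counting interval of 3.67 to 57.7.

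COL3A1 and KDR, the main VEGF receptor of endothelium, belong to the 19 markers of other cell types, of which 14 were tested and 3 rose, CD14 being the third. KDR measured 0.802 and 0.607 CPM against 1.73 and 1.79 CPM (adjusted p 0.0195) and CD14 0.508 and 0.515 CPM against 1.11 and 1.28 CPM (adjusted p 0.0143), so all 3 remained under 2 CPM, and KDR and CD14 lost their calls with a single C2 sample left out.

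In the lists of migration, adhesion and signalling, most genes were not called, and among all genes 5.09% were higher and 3.23% lower. The share that fell was above 3.23% in the integrin, core MAPK, TGF-β and BMP, and YAP/SRF lists. It was below that in the actin and EMT lists, and the share that rose was below 5.09% except in the EMT list. Of 44 integrin and focal adhesion genes 4 fell and 1 rose, of 64 actin and myosin genes 2 fell, of 43 core MAPK genes 4 fell, of 41 TGF-β and BMP genes 2 fell and 1 rose, of 29 TGF-β and YAP/SRF response genes 2 fell, and of 18 EMT and mesenchymal genes 1 rose. The medians of these 6 lists lay between −0.19 and −0.02, beside −0.11 for all genes over 8 CPM. ITGA2, the α2 subunit of a collagen receptor, fell from 475 and 430.2 CPM to 289 and 266 CPM (log2 −0.71, adjusted p 0.0172), and ITGA6, the α6 subunit of laminin receptors, from 274 and 227 CPM to 155 and 145 CPM (log2 −0.74, adjusted p 0.0214). MAP2K6, a kinase that activates p38, fell from 4.11 and 3.37 CPM to 1.57 and 1.14 CPM (2.76-fold lower, adjusted p 0.00326) and kept its call with each library left out. ITGA2 and ITGA6 did not keep theirs, with adjusted p-values of up to 0.153 and 0.191. With any 1 of the 4 libraries left out, the actin, YAP/SRF and EMT lists had 0 calls, the MAPK list 1 and the integrin list 1, or 3 without C2 replicate 2, and without either C1 sample these lists had 8 to 11 calls.

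SNAI1, a repressor of E-cadherin, rose from 6.96 and 5.17 CPM to 11.1 and 12.3 CPM (log2 0.95, adjusted p 0.0312, up to 0.202 with a library left out), whereas the mesenchymal filament VIM measured 1129 and 1078 CPM against 1091 and 1049 CPM (adjusted p 0.926) and the hyaluronan receptor CD44 286 and 266 CPM against 273 and 282 CPM (adjusted p 0.988). CCN2, a YAP target, measured 528 and 344 CPM in C2 and 293 and 286 CPM under the drug (log2 −0.59 ± 0.31, adjusted p 0.277). In the list of 40 Notch, Wnt and stem cell genes, 3 rose and 1 fell, the Wnt receptor FZD6 (log2 −0.55, adjusted p 0.042), and the list had 2 rises and 0 falls with any 1 of the 4 libraries left out. The Notch targets HES1 and HEY1 rose, HES1 from 36.4 and 31.9 CPM to 72.9 and 68.3 CPM (2.07-fold) and HEY1 from 1.92 and 1.77 CPM to 4.82 and 5.23 CPM (2.73-fold). The Notch ligand DLL4 also rose (log2 0.82, adjusted p 0.0408, lost without any 1 library of C2 or of the 4 doses).

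Among 29 listed ABC transporters, pumps of which several export drugs, 4 rose and 2 fell, against 5.09% higher and 3.23% lower among all genes. Their median was −0.23, and ABCC9, named above, is not in this list. ABCB1, the pump best known for carrying Paclitaxel out of cells, was at 0.164 and 0.276 CPM in C2 and 0.548 and 0.509 CPM under the drug, higher in both treated samples but not called (log2 1.27 ± 0.39, adjusted p 0.0655). ABCG2, another exporter, rose from 9.20 and 8.57 CPM to 16.9 and 14.3 CPM (log2 0.81, adjusted p 0.0122), and ABCC2 from 3.39 and 3.68 CPM to 5.94 and 7.28 CPM (log2 0.90, adjusted p 0.0216). All rises and falls of this list lost their call without C2 replicate 1 or without C2 replicate 2. Some of the rises also lost it without 1 or the other treated replicate.

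Several large groups gave no call by edgeR or nearly none. Of 78 cytosolic ribosomal protein genes, 76 had a log2 fold change above 0 and the median was 0.21, but 0 were called and only 3 had groups that did not overlap. In the median ribosomal protein gene, replicate 1 lay above replicate 2 by 0.54 on the log2 scale in the treated samples, and the difference of replicate 1 from replicate 2 in C2 was −0.34. The 72 nuclear respiratory chain genes, 13 mitochondrially encoded genes (median −0.50), 33 proteasome genes, 21 MHC class I genes and 33 cadherin, catenin and epithelial genes had 0 calls. Of 46 interferon-stimulated genes 1 rose, IFI27, and 1 fell, RIGI, a sensor of viral RNA (log2 −0.72, adjusted p 0.0182), with a median of −0.14. The call of RIGI was lost without any 1 library of C2 or of the treated pair, and that of IFI27 without C2 replicate 1. ISG15 and IFIT1 gave log2 fold changes of −0.36 and −0.55 and were not called (adjusted p 0.194 and 0.260).

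Measured against the untreated cells of day 2, C1, the same treated samples gave 3765 called genes (14.9%), 2084 higher (8.25%) and 1681 lower (6.66%). With the 4 samples of this comparison alone, 474 were called, 442 higher and 32 lower, so the falls against C1 rest on the fit of all 12 samples. Since both comparisons use the same treated samples, they are not independent. Of the 1285 genes higher than C2, 1046 were also called higher than C1 and 0 lower, and of the 815 genes lower than C2, 558 were also called lower than C1 and 1 higher. Histone genes gave 11 rises of 15 against C1 with a median of 1.53, and cholesterol genes 15 falls of 33 with a median of −0.54. DNA replication genes fell further below day 2, with 40 of 47 called lower and a median of −1.07, and NF-κB and cytokine genes stood further above it, with 28 of 37 higher and a median of 2.06. Among genes with a mean of at least 5 CPM, the 5 largest rises over C1 were in CCL20, SERPINB2, IL32, ARC and ABCC9. CCL20, a chemokine, measured 0.112 and 0.626 CPM in C1, 1.88 and 3.51 CPM in C2 and 9.68 and 9.75 CPM at 0.05 μM, a log2 fold change of 5.02 ± 0.48 against C1 and of 1.85 ± 0.36 against C2.

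No gene was called between 0.05 μM and either neighbouring dose by edgeR's quasi-likelihood test (0% each). Against 0.005 μM, 1569 genes had an unadjusted p-value under 0.05, the smallest adjusted p was 0.107, and DESeq2 called 30. Between 0.5 and 0.05 μM, 649 genes had an unadjusted p-value under 0.05, the smallest adjusted p was 0.706, and DESeq2 called 4. The count against 0.005 μM was 348 with the 4 samples alone, 93 without C1 replicate 1 and 110 without C1 replicate 2, and that against 0.5 μM was 10, 8 and 7. Histone genes were higher than at 0.005 μM by a median of 0.78 on the log2 scale, with 11 of 15 at an unadjusted p-value under 0.05. Interferon-stimulated genes were lower than at 0.005 μM by a median of 0.48 (29 of 46 at that unadjusted level), and NF-κB and cytokine genes were lower at 0.5 μM than at 0.05 μM by a median of 0.37 (19 of 37).

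Single genes followed several courses over the doses. H1-2 measured 60.7 and 78.5 CPM at 0.0005 μM, 86.1 and 100.3 CPM at 0.005 μM, 202 and 154 CPM at 0.05 μM and 147 and 134 CPM at 0.5 μM, highest at 0.05 μM. SERPINB2 measured 28.4 and 28.2 CPM at the lowest dose, 20.04 and 23.7, then 15.1 and 12.5, and 8.44 and 10.1 CPM at the highest, so that every dose lay above C2 but the lowest dose lay furthest. HMOX1 measured 28.5 and 27.6, 23.4 and 24.8, 48.7 and 47.8, and 60.3 and 51.8 CPM over the same doses. Differences of these 3 genes between 0.05 μM and the doses on either side of it did not pass the adjusted test. The step from 0.0005 to 0.005 μM was not tested.

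**Figure D4:**
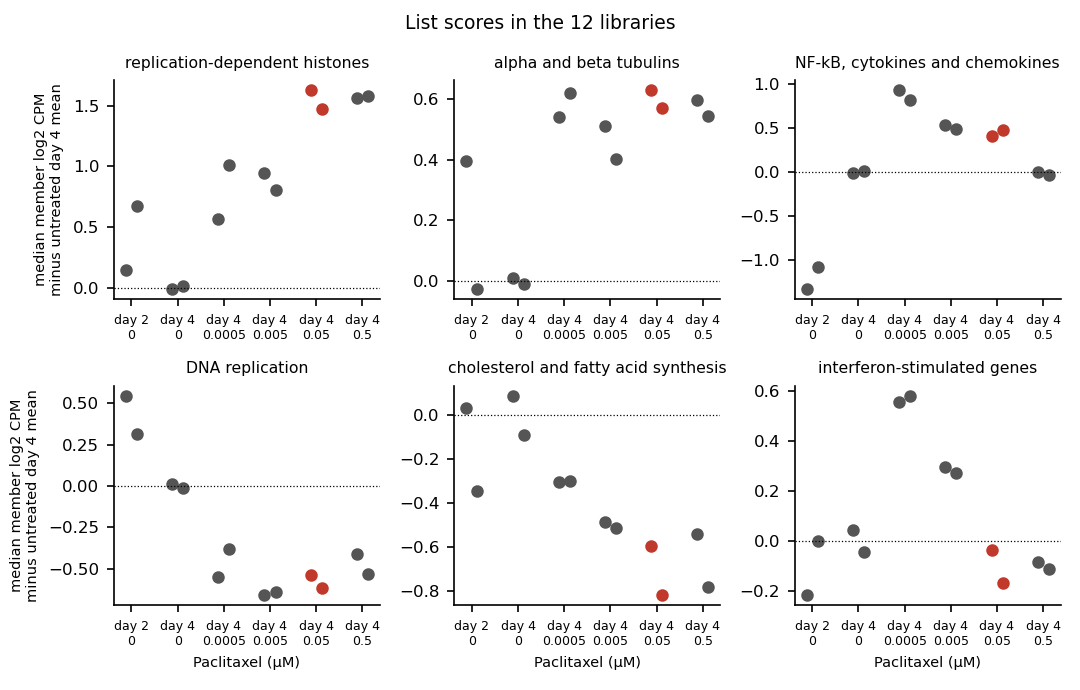
Scores of 6 gene lists in all 12 libraries, as the median over members of log2 CPM minus the C2 mean, by condition. Histone scores reach 1.63 and 1.47 at 0.05 μM and 1.56 and 1.58 at 0.5 μM, interferon scores are highest at 0.0005 μM (0.56 and 0.58) and near 0 at 0.05 μM (−0.04 and −0.17), and NF-κB scores are lowest on day 2.

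With 2 samples a group, the calls depend on single libraries. Without C2 replicate 1, 321 genes were called against C2, without C2 replicate 2 834, without treated replicate 1 858 and without treated replicate 2 436, in place of 2100. Leaving out a sample of C1, which takes no part in the contrast but enters the shared estimate of spread, raised the count to 4818 (replicate 1) or 4843 (replicate 2). Leaving out a sample at 0.005 μM gave 1322 or 1320. Of the 127 genes named by rule that were called, 49 kept their call in all 12 of these fits, among them H1-2, H4C8, SERPINB2, DHRS2, HMOX1, IL24, EGR1, INHBA, TUBB2A, CDC6, CDC45, BRIP1, HMGCS1, STARD4, FOSB and RAB17.

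**Figure D5:**
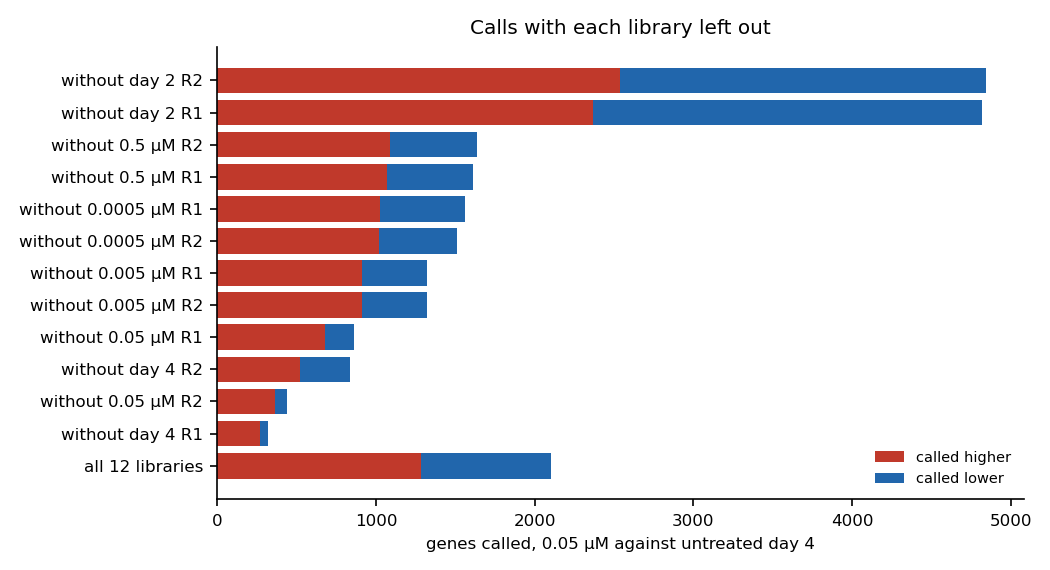
Stacked bars of the number of genes called higher and lower at 0.05 μM against untreated day 4 in the fit of all 12 libraries and with each library left out. The fit of all libraries gives 2100 calls, the fits without a library of the contrast give 321 to 858, and those without a day 2 library give 4818 and 4843.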

How the data were processed

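The deposited values are whole-number counts of reads per gene identifier (63568 identifiers). The authors trimmed reads with Trimmomatic 0.39, checked them with FastQC 0.11.9, aligned them with STAR 2.7.5 to GRCh37 and counted reads in exons. Whether counting used strand is not given in the sources used here, and 12976 of the 25249 tested genes overlap a gene on the other strand, whose reads cannot then be told apart.

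Counts were scaled by TMM in edgeR 4.0.16 (R 4.3.3), kept by filterByExpr and fitted with 1 coefficient per condition in all 12 samples by robust quasi-likelihood (6 residual degrees of freedom), with two-sided tests and Benjamini-Hochberg adjustment over all genes tested. An exact permutation test of 2 against 2 samples cannot go below 0.333. CPM use TMM library sizes, except marker sums, which use raw totals. Errors are standard errors of the fitted log2 fold change. The fit was tested on simulated data in which genes with a mean of at least 5 CPM were changed. It recovered 17.9% of 1.5-fold, 76.1% of 2-fold and 100% of 4-fold changes, with 4 false calls. A gene or list without a call may therefore still have changed by a small amount.

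The 42 gene lists were compiled by hand, and the members and lists were chosen with earlier results of these data known. Genes are named as 1 of the 12 largest rises or falls (called, mean of at least 5 CPM, groups not overlapping), 1 of the 4 called members of a list with the smallest p-values, 1 of 32 set genes, or 1 of the 5 largest rises or falls against C1. Positions came from a GENCODE annotation on GRCh37 and promoter windows from RefSeq (GRCh38.p14). Alternatives included DESeq2 1.42.0, other filters and scalings, offsets for GC content and length (mgcv 1.9.3), the replicate number as a block, and leaving out each sample. Same-numbered C2 and treated samples deviated with a correlation of −0.18, so the numbers were not taken as pairs. A few genes chosen this way are not reported here.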

Additional observations from a re-analysis of the deposited data

How the results depend on the processing

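Depth was not varied. Against C2, where 2100 genes were called, DESeq2 called 2666 (51.6% of them higher, against 61.2%), RLE scaling 2095, fits without robust estimation 2142, the 4 samples alone 2902, offsets for GC content and length 3062, no filter 2761 (71.2% higher) and a mean of at least 1 CPM 1122. With C1 and C2 together as the control 3766 were called. Chosen after seeing the data, fits without both C1 samples called 4817, with symbols only 1819 and of protein-coding genes only 1550. Leaving out single libraries gave 321 (C2 replicate 1) to 4843 (C1 replicate 2). With the replicate block the count was 2182, and the replicate numbers do not pair the samples. A crossed pairing, added after seeing the data, gave 2376.

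Against C1, where 3765 were called, a mean of at least 1 CPM gave 2068, the 4 samples alone 474, single libraries left out 1068 to 6609 and the replicate block 3715. Against 0.005 μM, in place of 0, DESeq2 called 30, no filter 145, the 4 samples alone 348, offsets for GC content and length 23, fits without both C1 samples 106, and single libraries left out 0 to 110. Between 0.5 and 0.05 μM, in place of 0, DESeq2 called 4, no filter 15, the 4 samples alone 10, fits without both C1 samples 7, and single libraries left out 0 to 8. The replicate block gave 0 calls in both dose comparisons. The cause of these shifts was not tested.

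Of the 127 called genes that the report names by rule, 0 reversed, 89 kept their call under every alternative that left out no library and gave them a value, and 47 under every alternative not chosen after seeing the data, single libraries left out included. List medians moved beyond the spread between replicates in 98 of 1100 recomputations.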

Other observations

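The genes below were put together after their values were seen and carry no weight beyond their own tests in edgeR's quasi-likelihood model against C2. All 3 arrestin domain genes examined rose. TXNIP, which binds thioredoxin and limits glucose uptake, measured 154 and 145 CPM in C2 and 578 and 503 CPM at 0.05 μM, far apart with close replicates (log2 1.85 ± 0.18, adjusted p 0.000181). ARRDC4, its close relative, rose from 9.41 and 8.76 CPM to 29.5 and 31.3 CPM (log2 1.74 ± 0.14), and ARRDC3, an adaptor that helps to remove membrane receptors, from 54.4 and 47.2 CPM to 118 and 115 CPM (log2 1.19 ± 0.18). Of 14 complement and acute phase genes, 9 rose and 1 fell, against 5.09% higher and 3.23% lower among all genes. Their median was 1.16, and the 9 count each copy of the near-identical pairs named below. C3, the central complement protein, rose from 0.344 and 0.626 CPM to 3.99 and 4.45 CPM (log2 3.13 ± 0.29), and C1S, a protease that starts the classical cascade, from 1.24 and 1.69 CPM to 6.78 and 6.24 CPM (log2 2.15 ± 0.18). SAA1 and SAA2, and C4A and C4B, are near-identical copies and are not given singly.

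Of 14 circadian clock genes, 3 rose and 0 fell, against 5.09% higher and 3.23% lower among all genes. NR1D1, a nuclear receptor that represses clock genes, rose from 12.7 and 8.89 CPM to 42.7 and 42.5 CPM (log2 1.98 ± 0.29, adjusted p 0.00261). IL7R, a cytokine receptor subunit, rose from 8.07 and 9.60 CPM to 22.7 and 20.1 CPM (log2 1.28 ± 0.16, adjusted p 0.000993). Of 7 serpins, with SERPINB2 from above among them, 4 rose and 0 fell, against 5.09% higher and 3.23% lower among all genes. SERPINA1, the inhibitor of neutrophil elastase, rose from 0.737 and 0.754 CPM to 2.74 and 1.79 CPM (log2 1.6 ± 0.25, adjusted p 0.00304). Among 394 tested genes whose symbol begins with ZNF, mostly zinc finger factors, 16 rose and 6 fell. Among all genes 5.09% were higher and 3.23% lower, and the median of the ZNF genes was 0.04. Among the 1285 genes called higher, 50 had no count in either C2 library.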
